A study of Mus musculus with 2 samples.

Results

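Hepatocyte3 was 1 of 5 hepatocyte clusters that the authors obtained by single-cell RNA sequencing of mouse liver, and its members here were the genes listed for it in 2 deposited marker tables. The hepatocyte table, in which each cluster was set against the other hepatocytes, listed 123 genes for Hepatocyte3 of 1604 listed for any hepatocyte cluster, which is 7.67%. The table of all cells, in which each of 12 clusters was set against every other cell, listed 37 genes for it of 1755, which is 2.11%. There were 14 genes in both tables and 146 in either, of 2783 in the whole series.

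The cells came from wild type BALB/c mice, 8 to 10 weeks old per the methods, that were injected intraperitoneally each day for 5 days with PBS or with 0.5 µg of recombinant interleukin-33 (rIL-33), an alarmin cytokine, and that per the paper were fasted in both groups. Livers were perfused with a digestive enzyme and the hepatocytes were put into droplets without flow sorting, so other liver cells could enter. Each condition gave 1 library, 2 in all, with no replicates. Both tables pool the libraries, so PBS-treated and rIL-33-treated cells could not be compared, and they give neither the depth of a library nor the number of cells in a cluster. No test of a difference was run.

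Hepatocytes are the main parenchymal cells of the liver. They make glucose, bile acids, urea and most plasma proteins, and they break down hormones, drugs and heme. Their high use of oxygen relies on mitochondria, and their peroxiredoxins, glutathione peroxidases and metallothioneins handle the peroxides and metals that come with it. Cells near the portal vein and near the central vein divide these tasks, with gluconeogenesis and urea synthesis stronger near the former and heme synthesis and drug metabolism near the latter.

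For each gene the tables give how many cells, as a percentage, had a value above 0 inside the cluster and in the reference cells, and this share is the only measure described here. A gene was listed where its mean expression was higher inside the cluster, in every row of both tables, but the share itself could lie on either side. Because the cluster was made from the same cells and genes, the shares are a description. The balance of the shares of genes listed for several clusters puts 10.1% of the hepatocytes in Hepatocyte3 and 55.6% in Hepatocyte1. The other hepatocytes are therefore mostly Hepatocyte1 cells. Where a pair of percentages is given for a gene, the first is the share inside Hepatocyte3 and the second the share outside.

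The shares inside and outside Hepatocyte3 were close to each other. Over its 123 genes in the hepatocyte table the median share was 49.4% inside and 48.4% outside, and the median difference was 1.0 percentage point. The difference ran from −3.8 to 13.6 points, and 113 genes (91.9%) lay within 5 points, against 6.56% of the rows of all 5 clusters. Inside the cluster 79 genes had a higher share, 2 an equal share and 42 a lower share, although every one of them had a higher mean. In every row of both tables the larger of the 2 shares was at least 25%. This limit means that a gene below 25% outside could appear only with a higher share inside. Such genes were Aprt, Alas1, Blvrb, Chmp2a, Mrpl17, Ppdpf, Psmc3 and Sfr1. All 42 genes with a lower share were among the other 115. Counts of higher genes in the classes below include the genes below 25% outside and are to be read beside the 79 of 123. Rows with a lower share made up 9.65% of the whole hepatocyte table. The other clusters had median differences of −22.9 points (Hepatocyte1), 33.7 points (Hepatocyte2), 33.1 points (Hepatocyte4) and 43.0 points (Hepatocyte5). Hepatocyte3 was thus the cluster whose listed genes differed least in the share of cells that carried them.

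**Figure D1:**
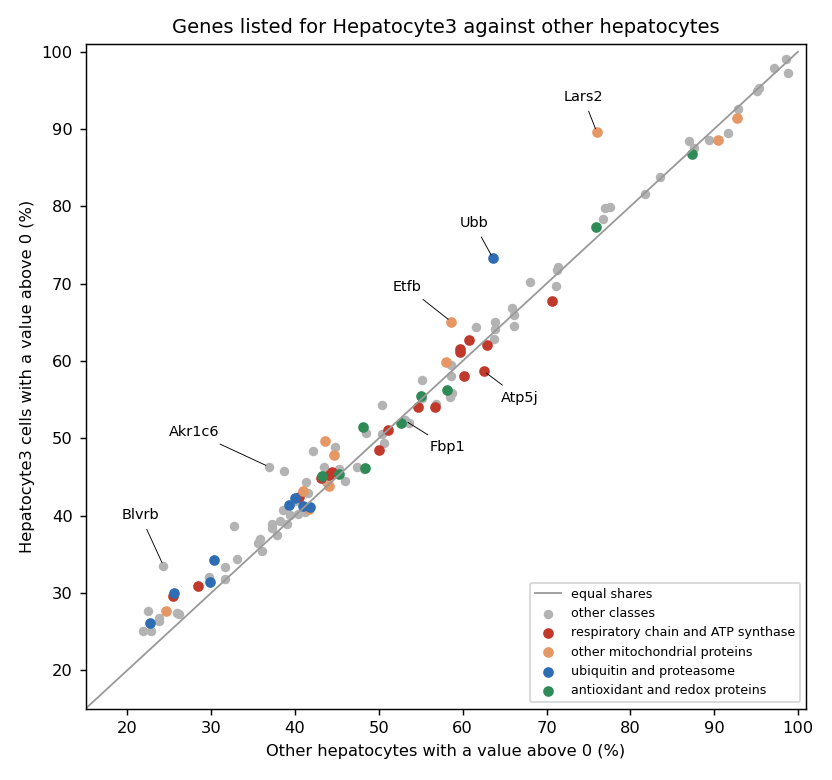
Share of cells with a value above 0 inside Hepatocyte3 (y axis, %) against the share in the other hepatocytes (x axis, %) for its 123 genes in the hepatocyte table. Each point is a gene coloured by class and the line marks equal shares; most points lie on or near the line, and Lars2 (89.6% against 76.0%) lies farthest above it.

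**Figure D2:**
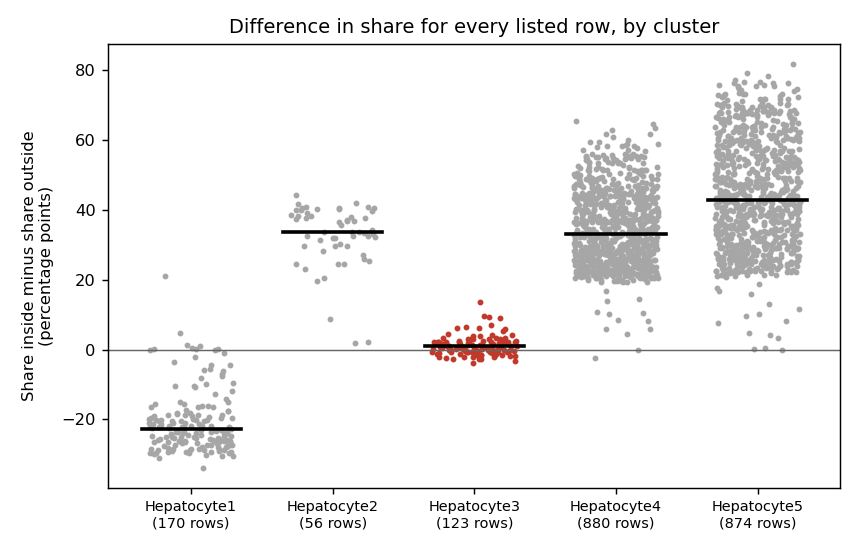
Difference in share, inside minus outside, in percentage points for the genes listed for each of the 5 hepatocyte clusters. Each point is a row and each bar a median. The Hepatocyte3 genes (red) lie between −3.8 and 13.6 points around a median of 1.0, while the medians of the other clusters lie between −22.9 and 43.0 points.

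Fbp1, fructose-1,6-bisphosphatase, the gluconeogenic enzyme taken here as the gene to check the cluster by, was not set apart by its share. The share was 52.3% against 53.1% in the remaining hepatocytes, which is a difference of −0.8 points. It was listed for Hepatocyte3 alone in the hepatocyte table and for no cluster in the table of all cells. Of 7 hepatocyte markers (Alb, Pck1, G6pc, Hnf4a, Apoa1, Ttr and Serpina1a) 0 were listed for Hepatocyte3 in either table, while all 7 were listed for another cluster. Alb, which encodes albumin, was listed for Hepatocyte4 and Hepatocyte5 among hepatocytes and was above 0 in 100% of the cells on both sides. Pck1, which encodes the cytosolic enzyme that commits carbon to glucose synthesis, had a share of 99.2% in Hepatocyte4 against 82.5% outside. G6pc, the phosphatase that releases free glucose, was above 0 in 75.5% of Hepatocyte4 cells against 13.6% outside and in 96.0% of Hepatocyte5 cells against 23.7% outside. Hnf4a, a transcription factor of hepatocyte identity, was above 0 in 65.9% of Hepatocyte4 cells against 19.7% outside. Of 32 markers of Kupffer cells, neutrophils, B cells, T cells, endothelial cells, red blood cells, and stellate cells and fibroblasts, 28 were listed for some cluster and 0 for Hepatocyte3. The name Hepatocyte3 is therefore used as the authors' label, with Lars2, Ubb, Akr1c6 and Blvrb as its leading genes by share.

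These 4 genes and Fbp1 are placed on the genome as follows (GRCm38, GENCODE M21). Lars2 lies on chr9:123366927-123462666 on the plus strand with 21 exons, and Ubb on chr11:62551171-62553213 on the plus strand with 2 exons. Akr1c6 lies on chr13:4434306-4457877 on the plus strand with 9 exons, Blvrb on chr7:27447978-27466144 on the plus strand with 5 exons, and Fbp1 on chr13:62864753-62888282 on the minus strand with 7 exons. Since promoter sequence was a property that the clustering did not use, the 250 bases before the RefSeq transcription start are shown for a broadly used gene (Ubb), a liver enzyme gene (Akr1c6) and the marker (Fbp1). They stand 5′ to 3′ on the gene's strand at chr11:62550921-62551170 (+), chr13:4434093-4434342 (+) and chr13:62888283-62888532 (−) of GRCm38.p6. Capitals mark matches on either strand. The TATA box was searched as TATAAA. The promoter element bound by NF-Y was searched as CCAAT, and the element bound by the Sp1 family, called the GC box, as GGGCGG. The core of the site of NRF1, an activator of respiratory genes, was searched as CATGCGC.
Ubb: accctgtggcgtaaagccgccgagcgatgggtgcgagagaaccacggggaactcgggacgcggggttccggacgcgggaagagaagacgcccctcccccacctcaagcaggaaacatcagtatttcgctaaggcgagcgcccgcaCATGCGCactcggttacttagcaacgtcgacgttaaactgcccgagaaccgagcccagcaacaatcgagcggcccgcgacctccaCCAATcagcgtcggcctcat
Akr1c6: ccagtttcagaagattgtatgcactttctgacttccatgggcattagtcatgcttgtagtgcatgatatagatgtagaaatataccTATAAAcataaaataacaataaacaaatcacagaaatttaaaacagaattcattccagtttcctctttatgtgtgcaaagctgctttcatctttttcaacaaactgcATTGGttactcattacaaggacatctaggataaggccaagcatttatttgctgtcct
Fbp1: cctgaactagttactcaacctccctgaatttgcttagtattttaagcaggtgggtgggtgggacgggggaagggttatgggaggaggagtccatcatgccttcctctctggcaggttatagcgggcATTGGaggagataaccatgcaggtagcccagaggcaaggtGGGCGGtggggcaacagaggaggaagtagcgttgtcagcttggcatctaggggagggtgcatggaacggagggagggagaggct
The Ubb promoter shown held the NRF1 core and a CCAAT box and was 62.8% G and C. A second RefSeq start of Ubb, with its promoter at chr11:62551481-62551730, had a GC box and neither of these motifs at 58.0% G and C. The Akr1c6 promoter held a TATA box and a CCAAT box on the opposite strand and was 34.0% G and C, and the Fbp1 promoter held a GC box and a CCAAT box on the opposite strand at 56.4%.

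RefSeq promoters were found for 103 of the 123 genes, 126 promoters in all. Their median content of G and C was 60.4%, against 52.4% for all 32851 promoters of the same length. The GC box was present in 54.0% of them against 32.7% of all promoters, the CCAAT box in 36.5% against 33.8%, and the TATA box in 10.3% against 12.4%. For the other clusters the GC box was present in 52.2% (Hepatocyte1), 56.0% (Hepatocyte2), 53.6% (Hepatocyte4) and 50.6% (Hepatocyte5). Their median content of G and C lay between 58.0% and 59.6%, so neither trait was particular to Hepatocyte3. CATGCGC was present in 15.9% of the Hepatocyte3 promoters, 10.7% for Hepatocyte1, 12.0% for Hepatocyte2, 5.2% for Hepatocyte4, 5.3% for Hepatocyte5 and 3.2% of all promoters. It lay before 19 genes of Hepatocyte3, of which 7 fall in the 2 mitochondrial classes used below (5 of them in the respiratory chain and ATP synthase class), among them Cycs, Sdhb, Cox5b and Ndufa6. It also lay before Acadm, Glud1 and Alas1, mitochondrial enzymes placed in other classes, and before Ubb and Gpx4. The remaining genes with it were Atp6v1e1, Chmp2a, Map1lc3b and Tax1bp1, of a class of 6 for autophagy, vesicles and endosomes, and Btf3, Gng5 and Myl6. The 2 mitochondrial classes hold 17 and 11 of the 123 genes, so they are well represented with or without the motif. These matches describe letters in a window and were not tested as binding sites.

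The genes of oxidative phosphorylation formed the largest class, with 17 genes, of which 9 had a higher share inside Hepatocyte3, 1 an equal share and 7 a lower share. Their median difference was 1.2 points and their range −3.8 to 4.2 points. Sdhb, the iron-sulphur subunit of succinate dehydrogenase (complex II), led the class and was above 0 in 29.6% of Hepatocyte3 cells and 25.4% of the other hepatocytes. Complex I was represented by 4 accessory subunits. Ndufb10 was above 0 in 44.9% inside and 43.1% outside, and Ndufs5 in 45.2% against 44.0%. Ndufa6 was above 0 in 54.1% inside and 54.7% outside, and Ndufa7 in 48.5% against 50%. The first pair therefore lay slightly above the other hepatocytes and the second slightly below. Uqcrh, the hinge protein of complex III, was lower inside at 67.8% against 70.6%, and Cycs, which encodes the electron carrier cytochrome c, was higher at 42.4% against 40.5%. Among the genes of complex IV and its assembly with other complexes, Cox7a2l was above 0 in 30.9% inside and 28.4% outside and Cox5b in 61.2% against 59.7%. Cox7b was above 0 in 62.1% inside and 62.9% outside and Cox5a in 58.1% against 60.1%. The ATP synthase subunits spanned the range of the class. Atp5h was above 0 in 62.7% inside and 60.7% outside, Atp5d in 61.5% against 59.7% and Atp5o in 45.6% against 44.4%. Atp5g2, a gene for the membrane ring, was equal at 51.1% against 51.1%. Atp5f1 had 54.0% inside and 56.7% outside, and Atp5j, at 58.7% against 62.5%, had the most negative difference of the 123 genes.

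Other mitochondrial proteins gave 11 genes in the hepatocyte table, 7 higher and 4 lower, with a median of 2.3 points. Lars2, the leucyl-tRNA synthetase of the mitochondrion, was above 0 in 89.6% of Hepatocyte3 cells and 76.0% of the other hepatocytes. It was the only one of the 123 genes with a difference of 10 points or more. Etfb, a subunit of the flavoprotein that passes electrons from fatty acid oxidation to the respiratory chain, had 65.1% inside and 58.6% outside. Hsd17b10, a mitochondrial dehydrogenase that is also part of the RNase P that cuts mitochondrial tRNAs, had 49.7% against 43.6%. Bnip3, a receptor for the removal of mitochondria by autophagy, had 47.8% against 44.7%. All 4 of these had a higher share inside. Smaller differences were found for Mrpl17, a protein of the mitochondrial ribosome, at 27.6% against 24.6%, and Grpel1, a nucleotide exchange factor of the import motor, at 43.2% against 40.9%. Mpc1, a subunit of the pyruvate carrier, had 59.8% against 58.0%. The genes with a lower share were Suclg1, of the citric acid cycle (43.8% against 44.0%), and Tomm6, of the outer membrane import pore (40.8% against 41.7%). Chchd2 (91.4% against 92.7%) and Chchd10 (88.6% against 90.5%), a related pair of proteins of the intermembrane space, were also lower, though carried by most hepatocytes on both sides.

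Genes of the ubiquitin and proteasome system were higher inside in 8 of 9 cases, with a median of 2.3 points. Ubb, one of the genes for ubiquitin, the tag that marks proteins for degradation, was above 0 in 73.3% of Hepatocyte3 cells and 63.6% of the other hepatocytes. Psmb5, a catalytic subunit of the proteasome core, had 30.0% inside and 25.5% outside, and Psma7, a structural subunit of the core, 41.2% against 40.9%. Psmd4, the ubiquitin receptor of the proteasome cap, had 34.3% against 30.3%, and Psmc3, an ATPase of the cap, 26.1% against 22.7%. Each of the 4 proteasome genes thus lay on the higher side, which for Psmc3 was fixed by the limit of 25%. Pomp, a proteasome assembly factor, had 41.4% against 39.3%, Ubxn1, a ubiquitin-binding protein, 42.3% against 40.0%, and Skp1a, a subunit of SCF ubiquitin ligases, 31.4% against 29.9%. Elob, an adaptor of other ubiquitin ligases, was the exception at 41.1% against 41.8%.

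Of 6 genes of autophagy, vesicles and endosomes, 5 were higher inside. Chmp2a, of the ESCRT-III complex that seals membranes, led with 27.7% inside and 22.5% outside. The direction for Chmp2a was fixed by the limit of 25%. The ubiquitin-like proteins of the autophagosome Gabarapl2 (27.4% against 25.9%) and Map1lc3b (44.4% against 43.7%) and the cargo adaptor Tax1bp1 (31.8% against 31.7%) differed by 1.5 points or less. Atp6v1e1, of the proton pump of acid vesicles, had 27.3% against 26.2%, and Vamp8, a protein of vesicle fusion, 38.9% against 39.0%. Among 4 chaperone genes, Ppia, cyclophilin A, was higher at 70.2% against 68.0%. The HSP70 cochaperones St13 and Dnaja1 had 36.5% against 35.6% and 46.0% against 45.3%, and Hsp90ab1 had 66.0% against 66.1%. The differences of these 4 genes were at most 2.2 points.

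Metabolic enzymes were found on both sides. In carbohydrate metabolism Gapdh, a glycolytic and gluconeogenic enzyme, was above 0 in 48.9% of Hepatocyte3 cells and 44.8% of the other hepatocytes, while Fbp1 lay just below, as given above. The class had 3 genes in the hepatocyte table, 1 higher and 2 lower. In amino acid and methyl group metabolism 4 genes were higher and 5 lower, with a median of −0.1 points. Gnmt, which consumes S-adenosylmethionine, had 79.8% against 77.0%, and Mat1a, which makes it, 94.9% against 95.1%. Bhmt, which remethylates homocysteine, had 92.6% against 92.9%. Hpd, of tyrosine breakdown, had 79.9% against 77.6%, and Pcbd1, which recycles the cofactor of phenylalanine hydroxylation, 38.4% against 37.3%. Arg1, the arginase of the urea cycle, was almost equal at 72.1% against 71.4%, as was Cdo1, which oxidises cysteine, at 81.6% against 81.7%. Glud1, glutamate dehydrogenase, had 52.0% against 53.6%, and Rida, which removes reactive imines, 69.7% against 71.1%.

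Lipid metabolism gave 4 higher and 4 lower genes, with a median of −0.2 points. Ech1, of unsaturated fatty acid oxidation, was above 0 in 57.5% inside and 55.2% outside, and Acadm, the medium-chain acyl-CoA dehydrogenase, in 55.2% against 55.1%. Phyh, which starts the oxidation of phytanic acid in the peroxisome, had 71.7% against 71.2%, and Scp2, a peroxisomal thiolase and sterol carrier, 97.9% against 97.2%. All 4 were higher inside by at most 2.3 points. The lower genes were Ephx2, the soluble epoxide hydrolase (58.1% against 58.6%), Crot, which exports acyl groups from the peroxisome (46.0% against 48.2%), Dbi, the acyl-CoA binding protein (89.5% against 91.7%), and Stard10, a phospholipid transfer protein (55.9% against 58.7%).

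The antioxidant class had 9 genes, of which 5 were higher and 4 lower, with a median of 0.1 points. The peroxiredoxins, which reduce peroxides, were split, with Prdx5 at 51.4% against 48.1%, Prdx1 at 77.3% against 75.9% and Prdx6 at 46.2% against 48.4%. The glutathione peroxidases Gpx1 (86.8% against 87.4%) and Gpx4 (56.2% against 58.1%) were lower, as was Sod1, the cytosolic superoxide dismutase (52.0% against 52.6%). Park7, a redox sensor, had 45.1% against 43.2%, and the thioredoxin gene Txn1 55.4% against 55.0%. Msrb1, a selenoprotein that repairs oxidised methionine, had 45.4% against 45.3%.

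Heme and metal handling held one of the clearest differences. Blvrb, biliverdin reductase B, was above 0 in 33.5% inside and 24.3% outside, and Alas1, the rate-limiting enzyme of heme synthesis, in 26.3% against 23.8%. For Blvrb and Alas1 the direction, though not the size, was fixed by the limit of 25%. The metallothioneins Mt1 (99.1% against 98.6%) and Mt2 (66.9% against 65.9%), which bind zinc and copper, were carried by most cells, as were the ferritin chains Fth1 (97.3% against 98.8%) and Ftl1 (95.3% against 95.3%). Atox1, a copper chaperone, had 59.5% against 58.6%. For Mt1, Fth1 and Ftl1 nearly all cells on both sides were above 0, so the share could hardly separate the groups.

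Enzymes of steroid, xenobiotic and conjugation reactions were higher inside in 6 of 7 cases, with a median of 1.6 points. Akr1c6, an aldo-keto reductase that acts on ketosteroids, was above 0 in 46.3% inside and 36.9% outside. Sult1d1, a cytosolic sulfotransferase, had 48.4% against 42.1%, and Dhrs4, a peroxisomal carbonyl reductase, 33.4% against 31.6%. Cyb5a, the electron donor cytochrome b5, had 88.4% against 87.0%, and Esd, an esterase, 38.9% against 37.3%. The glutathione S-transferases were split, with Gsta3 at 64.1% against 63.8% and Gstm1, the only gene of the class with a lower share, at 49.4% against 50.6%. In nucleotide metabolism, 2 genes were higher and 3 lower. Aprt, which salvages adenine, had 26.7% against 23.8% and the nucleoside diphosphate kinase gene Nme2 65.1% against 63.8%, while Ppa1, the pyrophosphatase, had 37.5% against 37.9%, Urah, of urate breakdown, 44.5% against 46.0%, and Adk, adenosine kinase, 54.4% against 56.8%.

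Genes of the nucleus were higher inside in 8 of 10 cases, with a median of 2.05 points. Hmgb1, an abundant chromatin protein, led with 38.6% inside and 32.7% outside. Ptma and Ptms, small acidic proteins of the prothymosin family, had 54.3% against 50.4% and 50.7% against 48.5%, and Edf1, a transcriptional coactivator, 46.3% against 43.4%. Sfr1, a homologous recombination factor, had 25.1% against 22.8%, and Npm1, the nucleolar histone chaperone, 41.9% against 40.0%. The genes of a replacement form of histone H3, H3f3b (42.9% against 41.6%) and H3f3a (40.2% against 40.4%), lay on either side. Scand1, a SCAN domain protein, had 40.1% against 39.4%, and Morf4l1, of histone acetyltransferase complexes, 35.4% against 36.1%. Of 6 genes of translation and RNA, Naca and Btf3, the subunits of the nascent chain complex at the ribosome, were higher at 64.4% against 61.6% and 39.3% against 38.2%. Serbp1, a ribosome-bound mRNA binding protein, had 36.9% against 35.8%, and Eif4ebp3, a repressor of cap-dependent translation, 50.6% against 50.4%. The initiation factor Eif1 (88.6% against 89.4%) and Rack1, a scaffold of the small ribosomal subunit (46.3% against 47.4%), were lower.

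Calcium binding and signalling had 6 higher genes of 7, with a median of 2.1 points. Rgn, regucalcin, a calcium binding protein and lactonase of the liver, was above 0 in 45.8% inside and 38.7% outside. The EF-hand proteins S100a10 (44.3% against 41.3%) and S100a1 (34.4% against 33.1%) followed, with the cytokine Mif (40.7% against 38.6%) and its homologue Ddt (83.8% against 83.5%). Gng5, a G protein gamma subunit, was lower at 55.3% against 58.5%. Among 5 remaining genes Ppdpf had 25.1% against 21.9% and Ttc36, a tetratricopeptide repeat protein, 78.3% against 76.7%. Lower shares were found for Myl6, a myosin light chain (40.4% against 41.2%), Serf2 (62.9% against 63.7%) and Oaz1, which limits polyamine synthesis (64.5% against 66.1%).

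Read against the 7.67% of all table genes that were listed for Hepatocyte3, several families had larger shares. Of 11 antioxidant genes listed for any hepatocyte cluster 8 (72.7%) were listed for Hepatocyte3. This count includes Blvrb, which is also on the pericentral list and was classed above under heme and metal handling. Hepatocyte3 likewise listed 4 of 11 proteasome genes (36.4%) and 16 of 57 respiratory chain and ATP synthase genes (28.1%). The respiratory genes were more often listed for Hepatocyte1, with 39 of 57. The proteasome genes were also listed more often for Hepatocyte1, with 6 of 11, and for Hepatocyte2, with 5 of 11. Of 7 glycolytic and gluconeogenic genes 3 were listed for Hepatocyte3, among them Fbp1 and Gapdh. Of 8 pericentral genes it had 4 (Akr1c6, Alas1, Blvrb and Rgn), and of 14 periportal genes 3, among them Arg1 and Fbp1. It thus had genes of both zones, as did Hepatocyte4, with 4 pericentral and 10 periportal genes, and Hepatocyte5, with 3 and 6. Hepatocyte3 also had 2 of 4 glutathione S-transferases, 1 of 4 aldo-keto reductases, 1 of 3 heme synthesis genes, 1 of 2 ubiquitin genes, 2 of 12 translation factors and 1 of 15 genes of the mitochondrial ribosome. None of 69 solute carriers, 31 cytochromes P450, 13 apolipoproteins, 8 major urinary proteins, 6 genes of the signal recognition particle and translocon, and 1 nuclear-retained RNA were listed for Hepatocyte3 in the hepatocyte table. Hepatocyte1 and Hepatocyte2 also listed 0 solute carriers and 0 cytochromes P450, which were listed only for Hepatocyte4 and Hepatocyte5. Hepatocyte2 listed 0 apolipoproteins and 0 major urinary proteins as well. Small nuclear ribonucleoproteins were listed for no cluster of the hepatocyte table. Cytosolic ribosomal proteins and genes of the mitochondrial genome were listed for no cluster of either table, whatever the cell type. Per the methods several genes were left out of the clustering, and whether these families were among them is not known here. All lists were taken by symbol and with earlier results of these data known. The shares therefore describe the lists and are no support for a trait of the cluster.

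**Figure D3:**
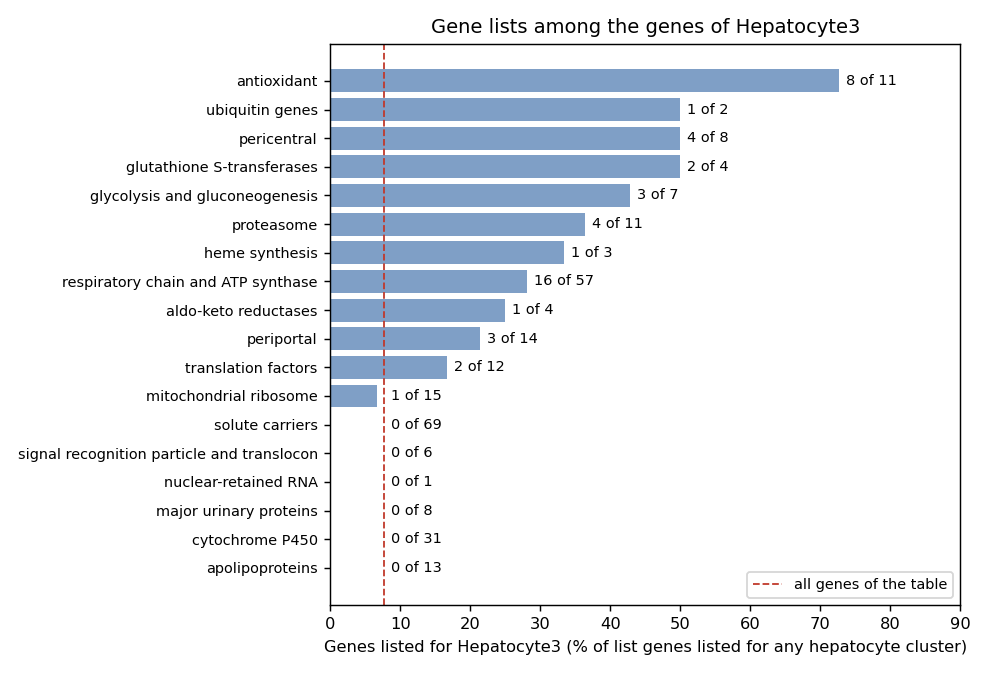
Percent of the genes of each list, among those listed for any hepatocyte cluster, that were listed for Hepatocyte3 (x axis), with the counts at the bars. The dashed line is the 7.67% of all genes in the table; antioxidant genes reached 72.7%, and 6 lists had 0 genes.

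Among the hepatocyte clusters, Hepatocyte3 shared 27 genes with Hepatocyte1 (22.0% of the Hepatocyte3 list and 16.0% of the other), 16 with Hepatocyte2 (13.0% and 28.6%), 5 with Hepatocyte4 (4.07% and 0.570%) and 0 with Hepatocyte5. Of all 1604 genes of the table, Hepatocyte1 listed 10.5%, Hepatocyte2 3.49%, Hepatocyte4 54.7% and Hepatocyte5 54.3%. There were 81 Hepatocyte3 genes (65.9%) listed for no other hepatocyte cluster, and 69.7% of all genes of the table were listed for 1 cluster alone. For the shared genes the share of cells in each cluster is known. It was higher in Hepatocyte3 than in Hepatocyte1 for 26 of 27 genes, by a median of 11.9 points, with Chchd10 as the exception (88.6% against 89.4%). It was lower in Hepatocyte3 than in Hepatocyte2 for 16 of 16 genes, with a median difference of −30.0 points, and lower than in Hepatocyte4 for 5 of 5 genes. This order follows in part from how genes come to be listed and was not tested.

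The 6 genes that all 3 of Hepatocyte1, Hepatocyte2 and Hepatocyte3 listed had the same order. Prdx5 was above 0 in 37.7% of Hepatocyte1, 51.4% of Hepatocyte3 and 82.7% of Hepatocyte2 cells. Edf1 had 32.3%, 46.3% and 78.2%, and Park7 31.9%, 45.1% and 77.6%, in that order. Nme2 had 55.5%, 65.1% and 92.2%. Hepatocyte3 thus lay between Hepatocyte1 and Hepatocyte2. The remaining genes were Scand1, with 28.9%, 40.1% and 77.2%, and Ttc36, with 73.8%, 78.3% and 97.8%. The balance of shares put Hepatocyte4 and Hepatocyte5 together close to Hepatocyte3 for Prdx5 (51.3%), Nme2 (65.7%) and Scand1 (40.4%), somewhat above it for Edf1 (48.4%) and Park7 (49.1%), and below it for Ttc36 (68.9%), so a middle position was not particular to Hepatocyte3. Ubb was above 0 in 93.0% of Hepatocyte2 cells and 73.3% of Hepatocyte3 cells, and the balance of shares gave 57.8% for the remaining clusters together. Gapdh had 79.9%, 48.9% and 37.8% in the same order, Psmb5 59.6%, 30.0% and 18.7%, and Sdhb 54.4%, 29.6% and 19.6%. Lars2 had another order, with 89.6% in Hepatocyte3, 86.7% in Hepatocyte1 and a computed 58.8% in the other 3 clusters. Sod1 and Crot were higher in Hepatocyte4, with 88.4% and 85.6% against 52.0% and 46.0% in Hepatocyte3.

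**Figure D4:**
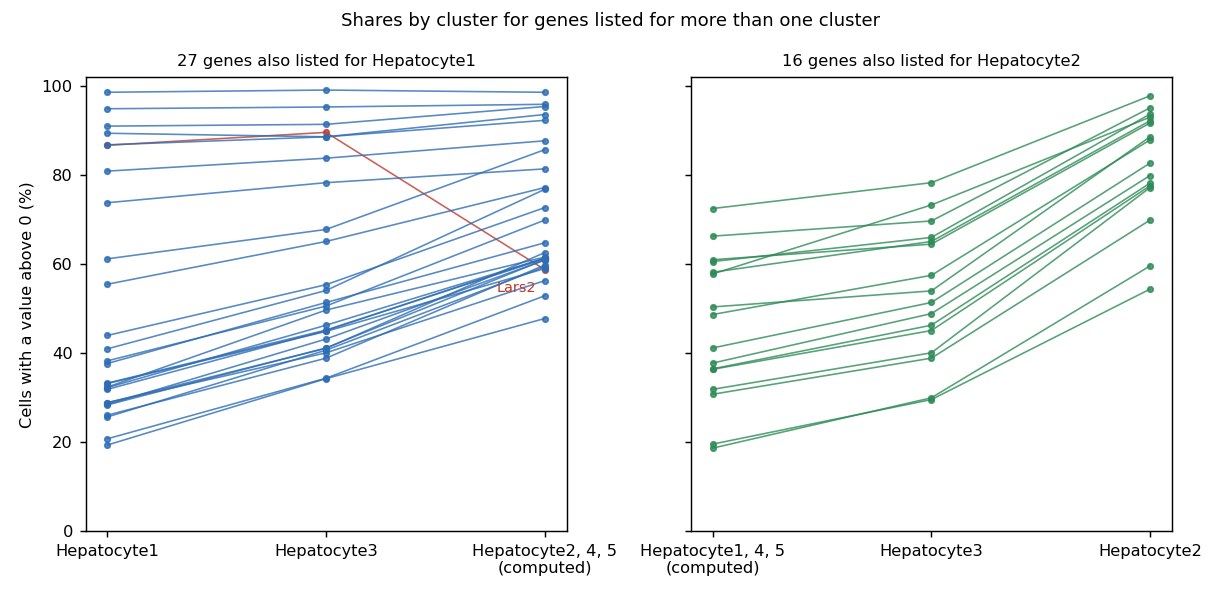
Cells with a value above 0 (y axis, %) in Hepatocyte1, Hepatocyte3 and, computed from the balance of shares, the other 3 clusters together for 27 genes (left), and in the other 3 clusters (computed), Hepatocyte3 and Hepatocyte2 for 16 genes (right), with 1 line per gene. The Hepatocyte3 shares lie above those of Hepatocyte1 in 26 of 27 genes and below those of Hepatocyte2 in 16 of 16, and Lars2 (red) drops from 89.6% to 58.8%.

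Against all other cells, Hepatocyte3 had 21 genes with a higher and 16 with a lower share, from −16.4 to 8.3 points with a median of 1.7. The limit of 25% fixed the higher side for Eno1 and Ranbp1, below it outside. It fixed the lower side for Gnl3, Hspb1 and Neat1, below it inside. Of the 37 genes 24 (64.9%) were also listed for a cluster of another cell type, against 80.1% of all genes of the table. B cells listed 18 of them (48.7%, against 29.1% of all genes) and T cells 15 (40.5%, against 34.1%). Only 5 (13.5%) were listed for no other cluster, while 36.5% of all genes of the table were listed for 1 cluster alone. The 14 genes found in both tables included Akr1c6, Alas1, Blvrb, Hmgb1, Psmb5, Ptma, Rgn, Rida, S100a10, Sod1, Ttc36 and Ubb. The share in Hepatocyte3 itself was higher in the table of all cells for 14 of 14, by 1.1 to 22.0 points. Either the values behind the tables or the cells counted as Hepatocyte3 therefore differed. Which of these applied, and whether the table of all cells holds values corrected for batch, was not tested. The sizes of differences are therefore not directly comparable between the tables.

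Among the genes of both tables, Ubb was above 0 in 74.4% of Hepatocyte3 cells and 67.8% of all other cells, and Akr1c6 in 52.2% against 45.8%. Rgn had 60.4% against 54.8%, Hmgb1 53.3% against 46.5% and Alas1 48.3% against 41.7%. These 5 genes kept a higher share in Hepatocyte3 against either reference. Blvrb had 54.1% against 49.4%, Psmb5 43.9% against 40.2% and Ttc36 84.7% against 81.4%, also on the higher side. Sod1 (65.5% against 67.7%) and Rida (74.2% against 74.6%) were lower against both references. The direction differed between tables for 3 genes, among them Ptma at 64.6% against 68.1% and S100a10 at 59.5% against 59.7% in the table of all cells. Several of these genes had higher shares in blood cells, such as Blvrb in 98.8% of red blood cells, Ubb in 96.3% of red blood cells and Ptma in 97.6% of B cells.

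**Figure D5:**
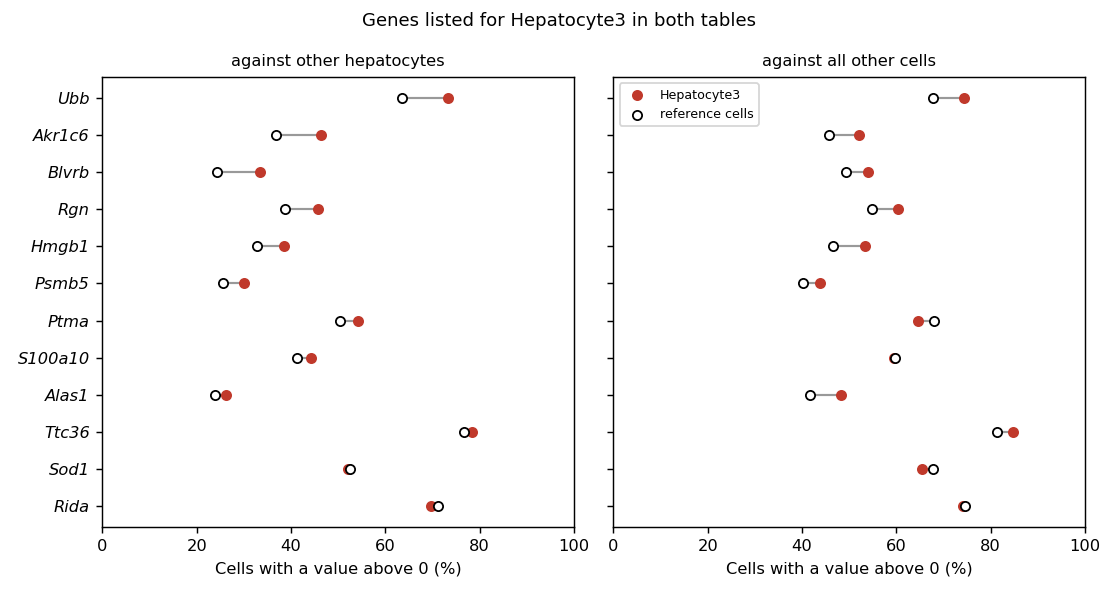
Share of cells with a value above 0 (x axis, %) in Hepatocyte3 (filled) and in the reference cells (open) for 12 of the 14 genes listed in both tables, against other hepatocytes (left) and against all other cells (right). The points shift to the right in the table of all cells, and Ptma and S100a10 change side.

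The 23 genes listed for Hepatocyte3 only in the table of all cells included 11 with a higher share inside. Ift20, of intraflagellar transport, was above 0 in 42.0% of Hepatocyte3 cells and 33.7% of all other cells, and Eno1, the glycolytic enolase, in 25.6% against 19.0%. Eif3i, an initiation factor, had 45.1% against 39.5%, and Rexo2, a nuclease for short RNAs, 49.0% against 44.1%. Snrpd1, a core protein of the splicing machinery, had 34.1% against 30.6%, and Csad, of taurine synthesis, 36.2% against 33.3%. These differences were at most 8.3 points. Zcchc7, of nuclear RNA surveillance, had 30.7% against 28.0%, Ranbp1, of nuclear transport, 25.8% against 23.6%, and Srp9, of the signal recognition particle, 55.9% against 54.2%. The kinase gene Nme1 had 41.6% against 40.2% and the coactivator gene Sub1 45.5% against 45.2%.

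The other genes of that table had a lower share inside. Slight differences were found for Aldh9a1, of carnitine synthesis (39.0% against 39.5%), Mrpl57, of the mitochondrial ribosome (34.8% against 35.6%), Hpgd, which inactivates prostaglandins (44.2% against 46.0%), Gnl3, a nucleolar GTPase (24.7% against 27.1%), and Oat, ornithine aminotransferase (62.2% against 64.9%). Nnmt, which methylates nicotinamide, had 41.2% against 49.4%, and Snrpd2, of the splicing machinery, 26.7% against 36.0%. Ccdc152 had 27.7% against 37.6%, and it overlaps Selenop by 439 bases on the opposite strand. A difference of 10 points or more was found for 4 genes. H1f0, a linker histone, had 35.7% against 46.4%, and Mup17, a major urinary protein, 26.7% against 39.1%. Hspb1, a small heat shock protein, had 16.3% against 29.1%. Neat1, the long non-coding RNA of nuclear paraspeckles on chr19:5824708-5845478 (minus strand), was above 0 in 11.6% of Hepatocyte3 cells and 28.0% of all other cells and in 94.7% of Hepatocyte5 cells. Its share in Hepatocyte3 was the lowest of the 146 genes in either table.

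Of the 146 genes 145 are protein coding and 1 is a long non-coding RNA, and 0 lie on the mitochondrial genome. No cluster of either table listed a gene of that genome, so its absence was not particular to Hepatocyte3. The longest annotated transcript of the 123 genes of the hepatocyte table had a median length of 1364 bases, between 918 for Hepatocyte1 and 3431 for Hepatocyte4, with 1240 for Hepatocyte2 and 3618 for Hepatocyte5. Transcripts of at most 1000 bases made up 30.9% of the Hepatocyte3 genes and 8.40% of the genes listed for any cluster. They made up 60.5% for Hepatocyte1, 27.3% for Hepatocyte2 and 0.6% each for Hepatocyte4 and Hepatocyte5, so short transcripts were not particular to Hepatocyte3. Since 3′ reads may not separate near-identical copies, the last 500 bases of each gene were compared with other genes in windows of 31 bases. Of the 146 genes 87 shared no window, and 20 shared at least 50% of their windows, among them Eif4ebp3 (100%), Atp5g2 (99.1%), Nme2 (98.9%), Gapdh (94.9%), Gpx4 (93.4%), Ftl1 (89.8%), Eno1 (84.3%), Ubb (75.3%), Mup17 (73.6%) and Psmb5 (63.4%). The shares of these genes are uncertain where reads could have been split or dropped.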

How the data were processed

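Hepatocytes of 1 PBS-treated and 1 rIL-33-treated library were analysed from 2 deposited marker tables that pool both. Per the methods, reads were aligned to mm10 and UMIs counted with Cell Ranger. Cells were kept with 200 to 3000 genes and up to 50% mitochondrial genes, and their counts were scaled to 10000 and put on a natural log scale. Clusters came from Seurat (50 principal components, resolution 5) and markers from FindAllMarkers. The authors deposited, for each listed gene, the fraction of cells above 0 in the cluster and in its reference, printed here as percentages with steps of 0.1 points. Their fold changes and p-values were not used, except to check that every fold change lies above 0. No doublet caller was run here.

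Cluster sizes were fitted by least squares (486 genes), using that a gene's overall share is the same whichever cluster it is computed from. Members and lists were chosen with earlier results of these data known, and 16 functional classes were assigned by hand after the gene names were seen. The rule named every member, with values for the 10 largest differences in each direction, genes of both tables, Fbp1, Alb, Pck1, G6pc, Hnf4a, list members and classes of at most 5 genes. The values of the remaining members were added afterwards, and those of 2 members are not reported here. Rows with dates for names (7, none of Hepatocyte3) were left out. Transcripts and coordinates are from GENCODE M21 (GRCm38) and promoters from RefSeq (GRCm38.p6). As alternatives, the sizes were refitted on other rows and by least absolute deviations, margins were set on the shares, and the table of all cells was used. Computations ran in Python 3.11.15 with pandas 2.3.3, NumPy 2.4.6 and Matplotlib 3.10.9.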

Additional observations from a re-analysis of the deposited data

How the results depend on the processing

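The share of hepatocytes in Hepatocyte3 (10.1%) was 10.2% from rows whose shares differ by at least 10 points and 8.85% from genes listed for at least 3 clusters. The 42 genes with a lower share inside became 21 at a margin of 1 point, 0 at 5 points and 16 in the table of all cells. The median difference of 1.0 point became 0.7 over genes with a share of at least 25% outside and 1.7 in the table of all cells. In that table Hepatocyte3 shared 3 genes with Hepatocyte1, 7 with Hepatocyte2, 4 with Hepatocyte4 and 2 with Hepatocyte5. These were 8.1%, 18.9%, 10.8% and 5.4% of the Hepatocyte3 genes there. Of all genes of that table, these clusters listed 1.77%, 0.57%, 25.2% and 24.7%, in the same order. In that table, where 2.11% of all genes were listed for Hepatocyte3, fewer genes of several lists were listed for any cluster. Hepatocyte3 had 0 of 2 respiratory chain genes, 1 of 3 proteasome genes, 1 of 3 translation factors, 2 of 7 small nuclear ribonucleoproteins, 1 of 5 major urinary proteins, 1 of 11 genes of the signal recognition particle and translocon, 2 of 5 antioxidant genes, 1 of 1 nuclear-retained RNA, 7 of 12 pericentral genes and 1 of 12 periportal genes, and 0 glutathione S-transferases were listed for any cluster. The difference changed sign there for 3 genes, among them Ptma (−3.5 points) and S100a10 (−0.2). The cause was not tested.

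No paired analysis was possible because each condition has 1 library and both tables pool them; for the same reason no replicate was left out. A reference that weights each cluster equally gave no value, since 0 genes have a known share in every hepatocyte cluster. The tables hold neither depths nor cell numbers per cluster, so no interval for counting error is given beside the differences.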

Other observations

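The shift between the tables was not the same in every cluster. Among genes listed for a cluster in both tables, the share inside that cluster was higher in the table of all cells for 14 of 14 Hepatocyte3 genes (median 11.9 points), 10 of 10 Hepatocyte1 genes (14.6), 370 of 385 Hepatocyte4 genes (13.9), 304 of 409 Hepatocyte5 genes (5.3) and 6 of 7 Hepatocyte2 genes (0.5). Gapdh, Rack1, H3f3a and H3f3b, listed for Hepatocyte3 against other hepatocytes, were listed only for other clusters in the table of all cells.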
